A study of Mus musculus with 12 samples.

Results

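The genes described here are 34 interferon response and antigen processing genes of the mouse, chosen by name as genes that type I or type II interferon is known to induce. They were read on Affymetrix arrays in primary mammary epithelial cells. A gene was read by the probe set that names that gene alone and has the highest mean signal over the arrays. This gave a value for 32 of the 34 genes, out of 18194 genes read in the same way. Isg15 was represented by a probe set that carries several gene symbols and was therefore not read, and Ifi44 was not analysed here. All 32 lay above the limit for low signal, a mean log2 signal that corresponds to about 101 intensity units, as did 49 of their 53 probe sets.

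Both groups were female FVB/N mice carrying MMTV-rtTA, a transgene in which the mouse mammary tumour virus promoter drives a doxycycline-dependent activator in the mammary gland. Control mice, 6 arrays, carried MMTV-rtTA alone, while p190B mice, also 6 arrays, carried in addition a tetracycline operator transgene encoding p190B and luciferase. p190B is a GTPase-activating protein. All mice received doxycycline in the chow (2 g/kg) from the age of 5 weeks, for 7 days, so the drug and the activator were common to all arrays, and the mammary epithelial cells were isolated at 6 weeks. The arrays are labelled as biological replicates, whether each came from 1 mouse or from pooled glands is not stated in the labels, and p-values measure the spread between these samples.

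Interferons are secreted proteins that act on neighbouring cells through receptors that activate STAT transcription factors. Cells make type I interferons after they sense viral RNA or DNA. Type I interferons act mainly through a complex of STAT proteins with IRF9, which binds a promoter element called the interferon-stimulated response element, and type II interferon acts mainly through a STAT dimer, which binds the gamma-activated sequence. The induced genes encode RNA sensors, proteins that block viral replication, chemokines that attract T cells, and the machinery that cuts and loads peptides for MHC class I. Many of these genes are also transcribed at a low level without infection, and immune cells in the mammary gland can express them as well as epithelial cells.

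The members were chosen by function and not by sequence, and their promoters were searched for both elements. RefSeq promoter windows of the mouse assembly GRCm38.p6, from 250 bases before to 50 bases after the gene's start, matched 25 of the 34 members, and no window was matched for Dhx58, Oas2, Usp18, Mx1, Mx2, Rtp4, Parp9, Parp14 and Tap2. The letters GAAA, then any 2 bases, then GAAA on either strand, an ISRE-like match, occurred in 11 of the 25 windows (44.0%), against 1079 of all 27025 genes with a window (3.99%). The following 30-base stretches, written 5′ to 3′ on the strand of the gene, hold the first such match of each measured member that had a match, which is in capitals. Members are in order of how much they varied between arrays, the most variable first.
Rsad2: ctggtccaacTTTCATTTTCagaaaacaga
Ifit1: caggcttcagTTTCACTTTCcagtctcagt
Ifit3: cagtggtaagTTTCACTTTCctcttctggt
Cxcl10: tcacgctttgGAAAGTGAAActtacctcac
Bst2: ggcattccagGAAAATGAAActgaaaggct
Oas1a: cccttctcggGAAATGGAAActgaaaatct
Ifih1: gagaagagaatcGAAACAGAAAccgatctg
Stat2: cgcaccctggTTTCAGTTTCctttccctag
Gbp2: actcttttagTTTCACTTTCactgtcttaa
Eif2ak2: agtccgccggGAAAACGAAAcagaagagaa

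These stretches lie at chr12:26456553-26456582 on the minus strand for Rsad2, at chr19:34640775-34640804 on the plus strand for Ifit1 and at chr19:34583363-34583392 on the plus strand for Ifit3. They lie at chr5:92349083-92349112 for Cxcl10, chr8:71537583-71537612 for Bst2, chr5:120907526-120907555 for Oas1a and chr2:62646206-62646235 for Ifih1, each on the minus strand. The remaining stretches lie at chr10:128270266-128270295 for Stat2 and chr3:142620594-142620623 for Gbp2, both on the plus strand, and at chr17:78882535-78882564 for Eif2ak2 on the minus strand. The first base of the match ranged from position −222 at Stat2 to position 33 at Ifih1, counted from the gene's start. Ifit1 and Ifit3 each held a further separate match, and at Bst2 and Oas1a a further match overlapped the one shown. Among other genes of the interferon pathway, 28 of 90 windows (31.1%) held the ISRE-like match, and among proteasome subunits that interferon does not replace it was 1 of 11 (9.09%).

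The letters TTCNNNGAA, a GAS-like match that is its own reverse complement, occurred in 7 of the 25 member windows (28.0%) and in 9.55% of all windows. It is shown for Psmb8, a proteasome subunit, and Irf1, a transcription factor, which held no ISRE-like match in these windows.
Psmb8: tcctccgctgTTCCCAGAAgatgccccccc
Irf1: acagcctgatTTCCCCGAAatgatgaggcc

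These lie at chr17:34198088-34198117 for Psmb8 and chr11:53769914-53769943 for Irf1, with the first base of the match at position −97 and −90. A match describes letters in a window and was not tested for binding. The 10 measured members with an ISRE-like match had a median standard deviation between arrays of 0.32 log2 units, and the 13 measured members with a window and no match had 0.22. Their median correlations with the other members were 0.61 and 0.63.

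Every array was scaled to the same trimmed mean intensity in the deposited values, and array medians lay between 187.6 and 211.5 intensity units. Luminal epithelial markers such as Krt8 and Krt18 summed to 190506 to 240384 units in control and 211030 to 229202 in p190B, with 11 of 12 listed genes read and none at 0, and basal markers summed to 90330 to 108794 and 97812 to 108208 units. Markers of macrophages, lymphocytes, fibroblasts and endothelium were read above the limit as well, with few exceptions. The 4 probe sets of Arhgap5, the gene for p190B, had log2 differences of 0.41 (SE 0.11), −0.32 (SE 0.14), −0.14 (SE 0.097) and 0.10 (SE 0.19), with limma adjusted p from 0.258 to 0.925, and which of them read the transgene is not stated in the labels. A measure of RNA degradation, the log2 ratio of 3′ to 5′ Gapdh probe sets, was −0.49 ± 0.016 (SD, n = 6) in control cells, compared with −0.40 ± 0.056 (SD, n = 6) in p190B cells. It therefore moved with genotype, and its part in the genotype differences below was not tested except as a covariate. Control replicate 5 was low for many members. Its value was the lowest of the 12 arrays for 18 of 32 members, while it was the lowest for 8.76% of the 12769 genes read above the limit.

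The comparison of genotypes asks which of these genes differed between cells with and without the p190B transgene. None of the 32 members passed limma's test at an adjusted p of 0.05, where 0.037% of all 27022 probe sets tested passed in either direction. At an unadjusted p under 0.05 there were 4 members, Ifi35, Trim25, Dhx58 and Oas1a, and 9.32% of all probe sets. Limma adjusted p of the members ran from 0.423 to 0.982. Members had a positive log2 difference, p190B minus control, in 25 of 32 cases (78.1%), against 59.7% of all tested genes, and their median was 0.12, against 0.032 for all tested genes. The median standard error of a member was 0.15, and no member had all 6 p190B arrays above all 6 control arrays (0.322% of all probe sets did) or below them (0.555%).

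The mean log2 signal over the 32 members was 11.10 ± 0.25 (SD, n = 6) on control arrays, compared with 11.23 ± 0.16 (SD, n = 6) on p190B arrays. The groups overlapped. Control arrays ran from 10.65 (replicate 5) to 11.33 (replicate 6), and p190B arrays from 11.07 (replicate 6) to 11.48 (replicate 2). The difference of 0.14 became 0.047 without control replicate 5, and 20 of 32 members then had a positive difference. It was 0.086 without p190B replicate 2 and 0.086 with the macrophage marker mean as a covariate, each with 22 of 32 differences positive. The macrophage marker mean itself was 0.13 log2 units higher in p190B. In a fit with the Gapdh ratio added, 21 of 32 differences were positive, with a median of 0.075 and a smallest limma adjusted p of 0.718. With equal array medians or quantile normalisation 25 of 32 were positive, as in the values as deposited. The median over all tested probe sets was 0.017 as deposited, −0.013 with equal medians and 0.0043 with quantile normalisation. The share of all genes with a positive difference is given only for the values as deposited.

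**Figure D1:**
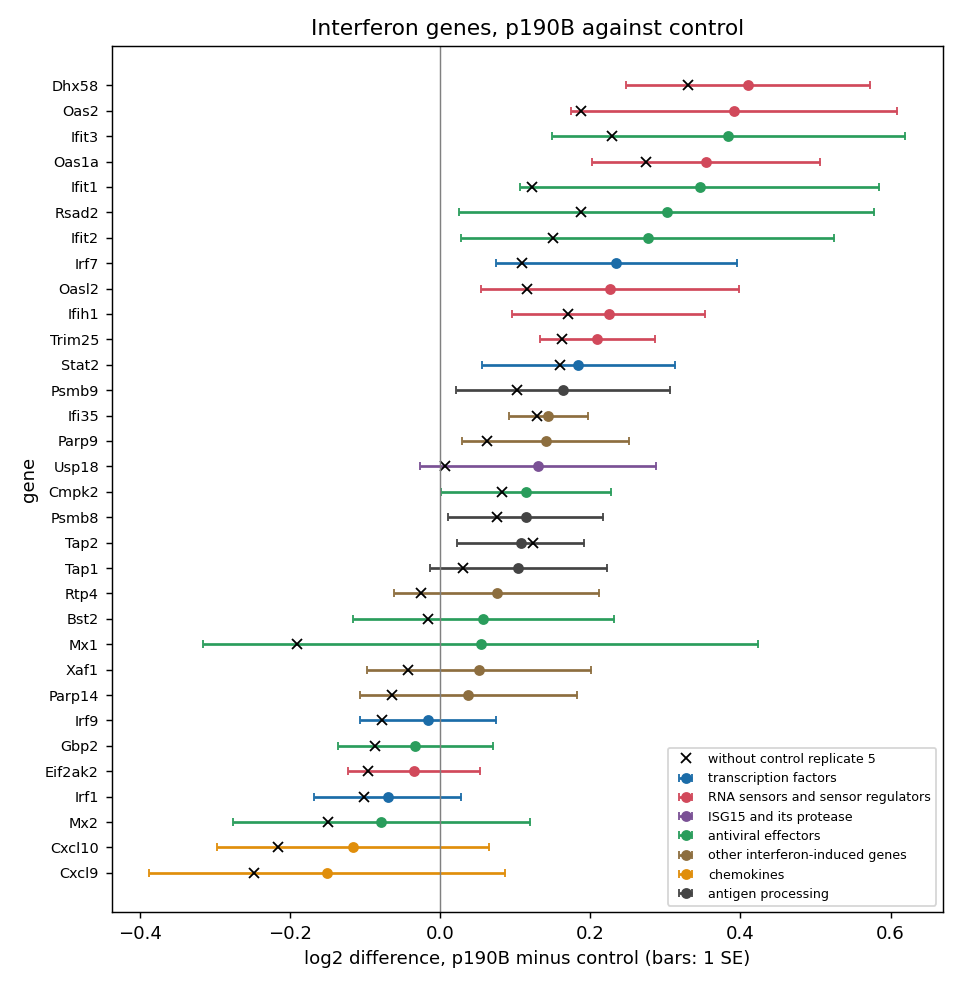
Log2 difference of p190B minus control with its standard error for each of the 32 members, grouped by role (6 arrays per genotype). Values run from −0.15 for Cxcl9 to 0.41 for Dhx58, and none passed the test over all probe sets.

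The cytosolic RNA sensors and their regulators held 7 members, of which 6 had positive differences with a median of 0.23. Dhx58, which encodes LGP2, a helicase that modulates the other RNA sensors, had a lowest, median and highest intensity of 218, 324 and 391 units in control and 312, 401 and 523 in p190B. The control and p190B ranges overlapped between 312 and 391 units. The log2 difference was 0.41 (SE 0.16) with a limma adjusted p of 0.457. A dimmer Dhx58 probe set gave 0.094 (SE 0.17) and did not follow the brighter one across arrays (r of −0.00077).

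Oas1a makes the oligoadenylates that activate RNase L, and its intensities were 1792, 2501 and 2980.0 in control and 2194, 3177 and 4070.5 in p190B (lowest, median and highest, as throughout). The difference was 0.35 (SE 0.15), with a limma adjusted p of 0.488. Oas2, a second oligoadenylate synthetase, read 224, 541 and 659 units in control and 532, 606 and 769.9 in p190B. Control replicate 5 at 224 units lay below all other arrays, and 3 p190B arrays lay above all control arrays. The Oas2 difference was 0.39 (SE 0.22).

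Ifih1 encodes MDA5, the sensor of long double-stranded RNA, and read 1989.5, 2423 and 2877 in control and 2233, 2759.6 and 3793 in p190B, a difference of 0.22 (SE 0.13). Trim25, the ubiquitin ligase that helps to activate the sensor RIG-I, read 6573, 8105 and 8409 in control and 8087, 9071 and 9765 in p190B, a difference of 0.21 (SE 0.076) with a limma adjusted p of 0.424. Its groups overlapped between 8087 and 8409 units, with most p190B arrays above that range. The other Trim25 probe sets gave 0.041 (SE 0.084) and −0.090 (SE 0.11), so the sign depended on the probe set. Oasl2, an oligoadenylate synthetase-like protein, differed by 0.23 (SE 0.17), and Eif2ak2, which encodes the RNA-activated kinase PKR that stops translation, by −0.035 (SE 0.088).

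The transcription factors of the response had a median difference of 0.084, and 2 of 4 were positive. Irf7, which amplifies type I interferon production, read 906, 1514 and 2014 units in control and 1398, 1664 and 1981 in p190B, a difference of 0.23 (SE 0.16). Its lowest and highest arrays were both controls, replicates 5 and 3. Irf1, a factor induced mainly by type II interferon, read 9736, 11312 and 13854 in control and 8829.9, 11349.5 and 12224.5 in p190B, a difference of −0.070 (SE 0.098). Stat2 gave 0.18 (SE 0.13) and its dimmer probe set 0.29 (SE 0.12), while Irf9, which binds DNA in the type I complex, gave −0.016 (SE 0.090). Usp18, the protease that removes ISG15 from proteins and dampens the type I receptor, read 1467.5, 2421 and 2926 in control and 2076, 2392 and 3067 in p190B, a difference of 0.13 (SE 0.16).

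The 9 antiviral effectors had a median difference of 0.11, 7 of 9 positive, and they included the members that varied most between arrays of 1 genotype. Mx1, a GTPase that blocks influenza viruses, had the largest standard deviation between arrays, 0.75 log2 units after each genotype was centred on its mean. Its intensities were 76.9, 201 and 413 in control and 119, 175 and 500.0 in p190B, a 6.5-fold range over the 12 arrays against a genotype difference of 0.054 (SE 0.37). RefSeq lists the mouse Mx1 locus as a transcribed pseudogene in the assembly used here. Mx2, its neighbour and paralogue, read 438, 537 and 816 in control and 353, 534 and 830.5 in p190B and gave −0.078 (SE 0.20).

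Rsad2 encodes viperin, a radical enzyme that makes a chain-terminating nucleotide, and it ranked next in spread with a standard deviation of 0.57. Its control intensities were 2329, 3823 and 5895 and its p190B intensities 3271, 3361 and 8657. p190B replicate 1 at 8657 and replicate 2 at 6497 units lay above all controls, and the other 4 p190B arrays lay between 3271 and 3396 units. The difference was 0.30 (SE 0.28), and the other Rsad2 probe sets followed it across arrays (r of 0.96 and 0.93) with differences of 0.26 and 0.11. The difference was −0.37 in the fit that held the Gapdh ratio, and it was not called there either. Cmpk2, a mitochondrial nucleotide kinase encoded beside Rsad2, gave 0.11 (SE 0.11).

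The IFIT proteins bind viral RNA ends and hold back its translation. Ifit1 read 869, 2192 and 2768 units in control and 1737, 2488 and 3052 in p190B, with control replicate 5 lowest of all arrays, and gave 0.35 (SE 0.24). Ifit2 read 441, 745 and 1401 in control and 637, 786 and 1271 in p190B and gave 0.28 (SE 0.25). Ifit3 read 494, 824 and 1319 in control and 735, 1286 and 1595 in p190B and gave 0.38 (SE 0.23). All IFIT genes had standard deviations of 0.47 to 0.50, and in each the genotypes overlapped. Ifit3 and Oas1a have closely similar neighbouring copies in the mouse, so which copy their probe sets read is uncertain. Bst2, which encodes tetherin and holds budding virions at the cell surface, gave 0.057 (SE 0.17). Gbp2, a guanylate-binding protein that attacks vacuoles of intracellular pathogens, read 10297, 12124 and 15577.5 in control and 9549, 12633 and 13569.6 in p190B. Its difference was −0.034 (SE 0.10), and a second Gbp2 probe set, about as bright, gave 0.083 (SE 0.13).

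The chemokines Cxcl9 and Cxcl10, which attract T cells through the chemokine receptor CXCR3, had negative differences. Cxcl9 read 3432, 4811 and 6400.0 units in control and 2579, 4142 and 7694.5 in p190B, so its lowest and highest arrays were both p190B. Its difference was −0.15 (SE 0.24), while a dimmer Cxcl9 probe set gave 0.030 (SE 0.15), of the opposite sign. Cxcl10 read 4265, 6320.5 and 7045 in control and 3569.5, 5175 and 8878 in p190B and gave −0.12 (SE 0.18). Neither was beyond the spread between arrays (limma adjusted p of 0.903 and 0.902).

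The antigen processing genes encode the inducible proteasome subunits Psmb8 and Psmb9, which replace constitutive catalytic subunits, and Tap1 and Tap2, which together pump peptides into the endoplasmic reticulum. All 4 had positive differences with a median of 0.11. Psmb8 read 6069, 6965 and 7572 units in control and 6031, 7177 and 9464 in p190B and gave 0.11 (SE 0.10). Psmb9 read 2925, 3932 and 4097.5 in control and 2885, 3955 and 5299 in p190B and gave 0.16 (SE 0.14). For both genes p190B replicate 1 was the lowest array and p190B replicate 4 the highest, so the range of the p190B arrays enclosed that of the control arrays. Tap1 gave 0.10 (SE 0.12) and Tap2 0.11 (SE 0.085).

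The 5 measured members outside these roles had positive differences with a median of 0.075. Ifi35, an interferon-induced leucine zipper protein, had the smallest spread of all members, 0.079 log2 units, and read 10524, 11070.5 and 11863 units in control and 10797, 12489.5 and 12835 in p190B. The difference was 0.14 (SE 0.053), with the smallest limma adjusted p among the members, 0.423. Other Ifi35 probe sets gave 0.063 (SE 0.080) and 0.038 (SE 0.071). Parp9 gave 0.14 (SE 0.11) and Parp14, a mono-ADP-ribosyltransferase, 0.037 (SE 0.14). Rtp4, a chaperone of receptor transport, gave 0.075 (SE 0.14), and Xaf1, a pro-apoptotic zinc finger protein, read 2004.5, 2963 and 3653 in control and 2316, 2902 and 3582 in p190B and gave 0.052 (SE 0.15). Where a member had more probe sets above the limit, 13 genes in all, none of them passed. The sign was also opposite to that of the brightest probe set for dimmer ones of Cmpk2 (−0.020), Psmb8 (−0.14), Rtp4 (−0.083) and Parp14 (−0.0092).

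The spread of the members between arrays of a genotype was wide beside their genotype differences. Their median standard deviation within genotype was 0.29 log2 units, against 0.19 for all tested genes, and 22 of 32 members lay above the median of all tested probe sets (0.21). The range over arrays was 1.93-fold at the median, from 1.22-fold for Ifi35 to 6.5-fold for Mx1. Control replicate 4 had the next lowest mean over members (10.96) after control replicate 5, and p190B replicate 2 was the highest array for 9 of 32 members, against 11.2% of tested genes. By role, the median standard deviation was 0.47 for effectors, 0.43 for chemokines, 0.30 for sensors, and 0.21 for transcription factors and for antigen processing genes.

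**Figure D2:**
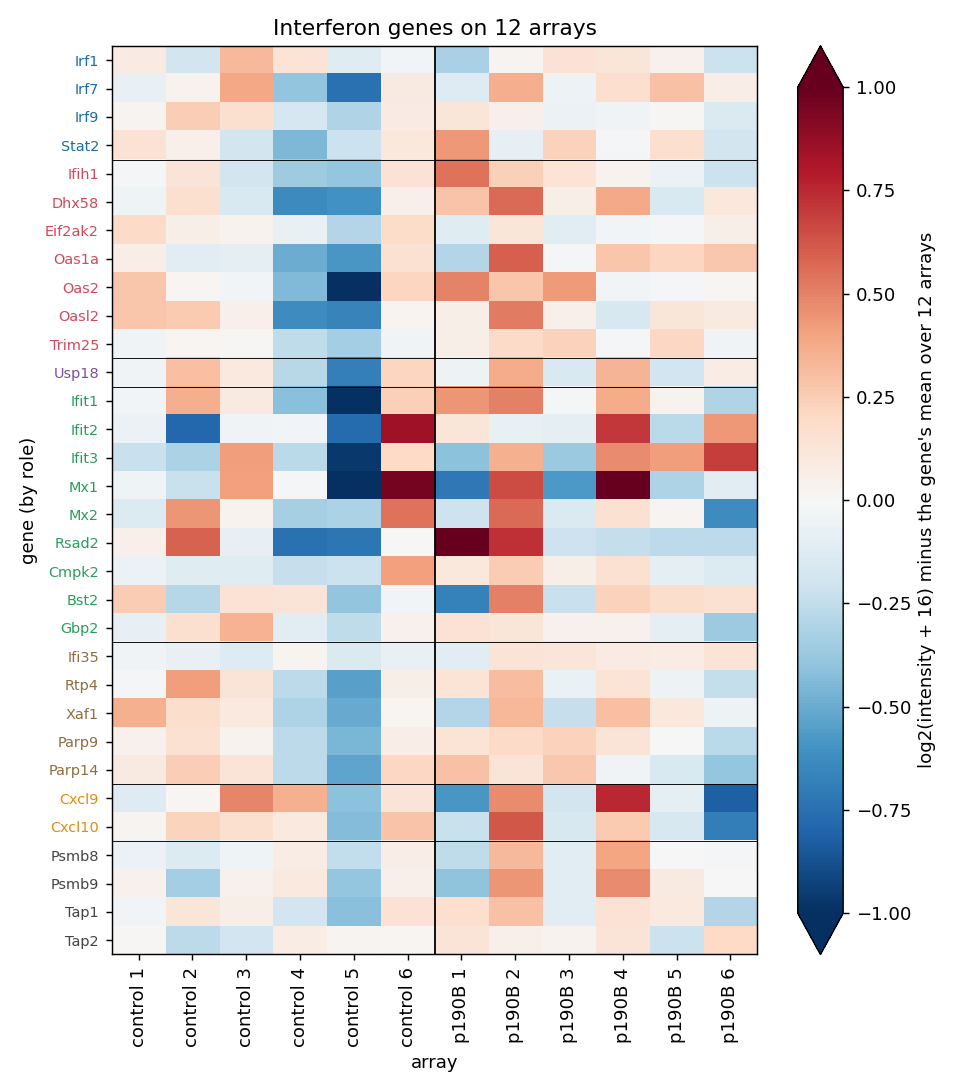
Heat map of the log2 signal of the 32 members (rows, by role) on the 12 arrays (columns). Each value is the deviation from the gene's mean over the 12 arrays, so genotype differences remain, with colours saturating at −1 and 1. The control replicate 5 column is low for most members and the p190B replicate 2 column is high for most.

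Most members moved together from array to array. Over the 496 pairs of members the median Pearson correlation across 12 arrays, after each genotype was centred on its mean, was 0.49, and 86.5% of pairs were above 0. Over all 81517296 pairs of tested genes the median was 0.007 and 50.6% were above 0. These correlations share the 12 arrays and their scaling and are given as a description. Without control replicate 5 the median of the members was 0.34. Control replicate 5 and p190B replicate 2 were the arrays farthest from the median of the members' mean. Without these 2 arrays the median of the members was 0.25 with 67.9% of pairs above 0. For all tested genes it was then 0.008 with 50.7% above 0. The 2 arrays were chosen by the members' own mean, so a lower value for the members follows in part from that choice.

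The closest pairs were Psmb8 with Psmb9 (0.96), Parp9 with Parp14 (0.96), Ifit1 with Rtp4 (0.95) and Irf9 with Rtp4 (0.94). The first of these pairs kept a correlation of 0.94 without the 2 arrays, and the others 0.93, 0.93 and 0.92. Psmb8 and Psmb9 lie next to the TAP genes on chromosome 17, and Parp9 and Parp14 are neighbours on chromosome 16. Pairs of near neighbours were not closer as a group. The 14 pairs within 10 genes of each other had a median of 0.41, from −0.42 for Tap1 with Tap2 to 0.96, and the other 482 pairs had 0.49. The neighbours Cxcl9 and Cxcl10 had 0.85 and Rsad2 and Cmpk2 0.43.

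Each member was also set against the mean of the others. The correlation was above 0 for 31 of 32, with a median of 0.70, and the highest were 0.91 for Usp18, 0.90 for Ifit1 and 0.88 for Tap1. Tap2, whose product forms a dimer with that of Tap1, was the exception at −0.26, and the lowest pair of all was Trim25 with Tap2 (−0.69). Within the roles, the median pair correlation was 0.85 for the pair of chemokines, 0.69 for sensors, 0.48 for the other induced genes, 0.43 for effectors, 0.27 for transcription factors and 0.22 for antigen processing genes.

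**Figure D3:**
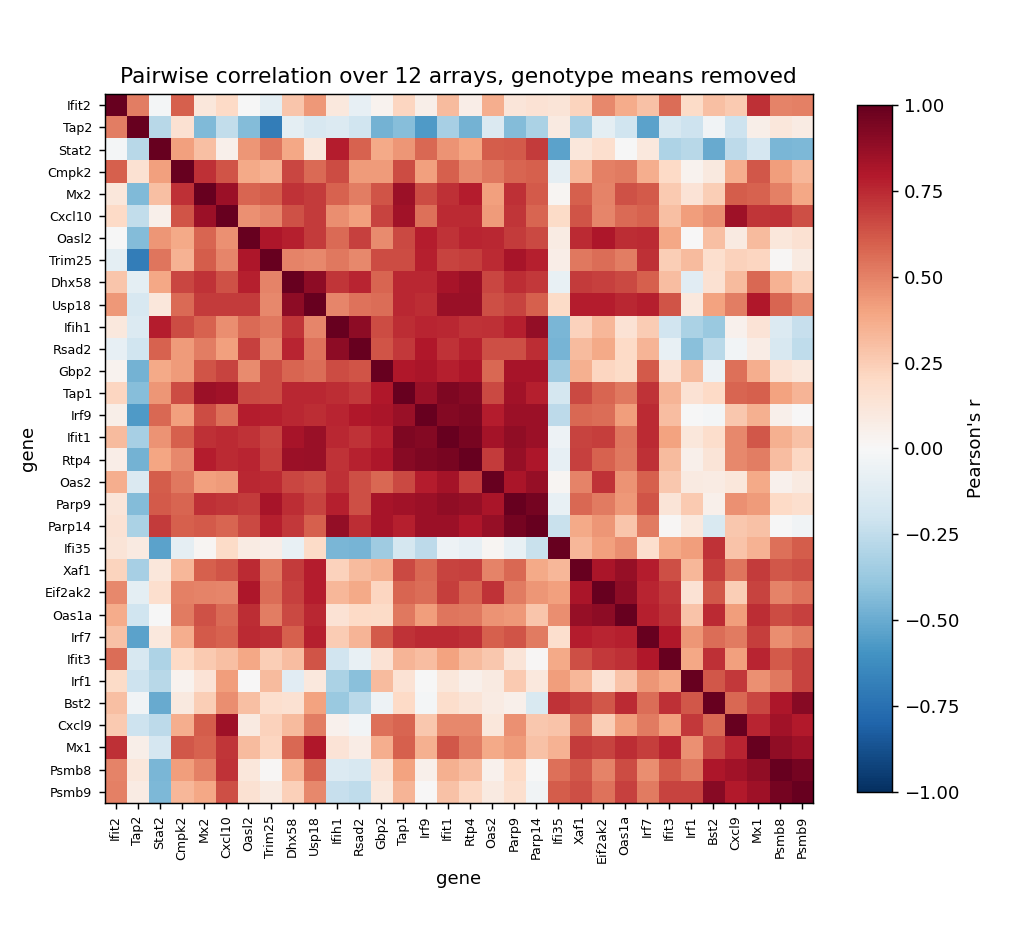
Pearson correlations between the 32 members across the 12 arrays after centring each genotype. Most pairs are positive (86.5%), while Tap2 is below 0 with 25 of the other 31 members.

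Markers of immune cells differed widely between preparations of the same genotype. The summed signal of 13 T and NK cell markers ran from 4826 to 18125 units in control and from 3381 to 18160 in p190B, and that of 10 B lymphocyte and plasma cell markers from 1927 to 10956 and from 2010 to 10609 units. The 14 macrophage markers summed to 70792 to 118155 units in control and 81488 to 120346 in p190B. Dendritic cell markers (6 of 8 read above the limit) summed to 1914.5 to 7173 and 1789 to 8617 units. No marker was at 0, and Ncr1, Pax5 and Xcr1, which mark NK, B and dendritic cells, lay below the limit. In tissue preparations such as these, more cells of a type and more RNA of a gene per cell cannot be told apart.

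The mean of the members followed these markers across arrays with a correlation of 0.51 for T and NK cells, 0.48 for B cells, 0.56 for dendritic cells and 0.52 for macrophages (12 arrays, genotypes centred). Without control replicate 5 and p190B replicate 2 the same values were 0.12, 0.055, 0.095 and 0.061. The correlation was 0.12 with luminal, 0.0073 with basal, −0.24 with fibroblast and −0.56 with endothelial markers, and without these 2 arrays it was 0.47, 0.25, −0.62 and −0.53. Which markers the members followed most closely therefore changed when these 2 arrays were left out. Control replicate 5 had the lowest macrophage and B cell sums of all arrays and the lowest mean of the members, whereas control replicate 4 had the highest T, NK and B cell sums of the controls and a low mean of the members. The part of these cells in the spread of the members was not tested beyond the slopes that follow.

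To give the relation gene by gene, each probe set was fitted with limma on the mean log2 signal of the T, NK and B lymphocyte markers beside genotype, a fit chosen after the data had been seen. The slope is the change in log2 signal for each log2 unit of marker signal. It was above 0 for 27 of 32 members, against 48.8% of all tested genes, with a median of 0.059 against −0.0024. Of the members 5 of 32 passed at a limma adjusted p of 0.05, all with a positive slope, where 3.11% of all probe sets passed with a positive slope. The members that passed were Psmb9, Bst2, Psmb8, Cxcl9 and Mx1. The macrophage and lymphocyte marker means correlated at 0.90 across arrays, so the slopes do not separate these cell types.

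Psmb9 had a slope of 0.22 (SE 0.033) with a limma adjusted p of 5.98e-04, and Psmb8 one of 0.15 (SE 0.029) with 0.0072. Bst2 had a slope of 0.26 (SE 0.044) at a limma adjusted p of 0.00196, and Cxcl9 one of 0.33 (SE 0.069) at 0.0137. Mx1 had the steepest slope, 0.46 (SE 0.12), at a limma adjusted p of 0.0493. The calls for Psmb9 and Bst2 remained with each of the 12 arrays left out in turn. That for Cxcl9 was lost without p190B replicate 4 and that for Psmb8 without p190B replicate 1, and the Mx1 call remained in 3 of 12 such fits. Of these members Bst2 held the ISRE-like and the GAS-like letters in its promoter window and Psmb8 the GAS-like letters, neither was found in the windows of Psmb9 and Cxcl9, and Mx1 had no window.

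For 5 members the slope was below 0. It was −0.13 (SE 0.12) for Rsad2, −0.10 (SE 0.055) for Stat2, −0.066 (SE 0.058) for Ifih1, −0.025 for Parp14 and −0.018 for Tap2, and none of these passed. Rsad2 and Ifih1 correlated at 0.89 with each other. By role, the mean of the antigen processing genes correlated at 0.82 with the lymphocyte marker mean, that of the chemokines at 0.74, effectors 0.55, Usp18 0.40, transcription factors 0.31, other induced genes 0.29 and sensors 0.14. Within antigen processing the values were 0.92 for Psmb9, 0.87 for Psmb8, 0.35 for Tap1 and −0.15 for Tap2. Against macrophage markers 1 member passed, Ifit3, with a slope of 1.27 (SE 0.30) and a limma adjusted p of 0.042, where 2.16% of all probe sets passed with a positive slope, and its call remained in 4 of 12 fits with an array left out.

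**Figure D4:**
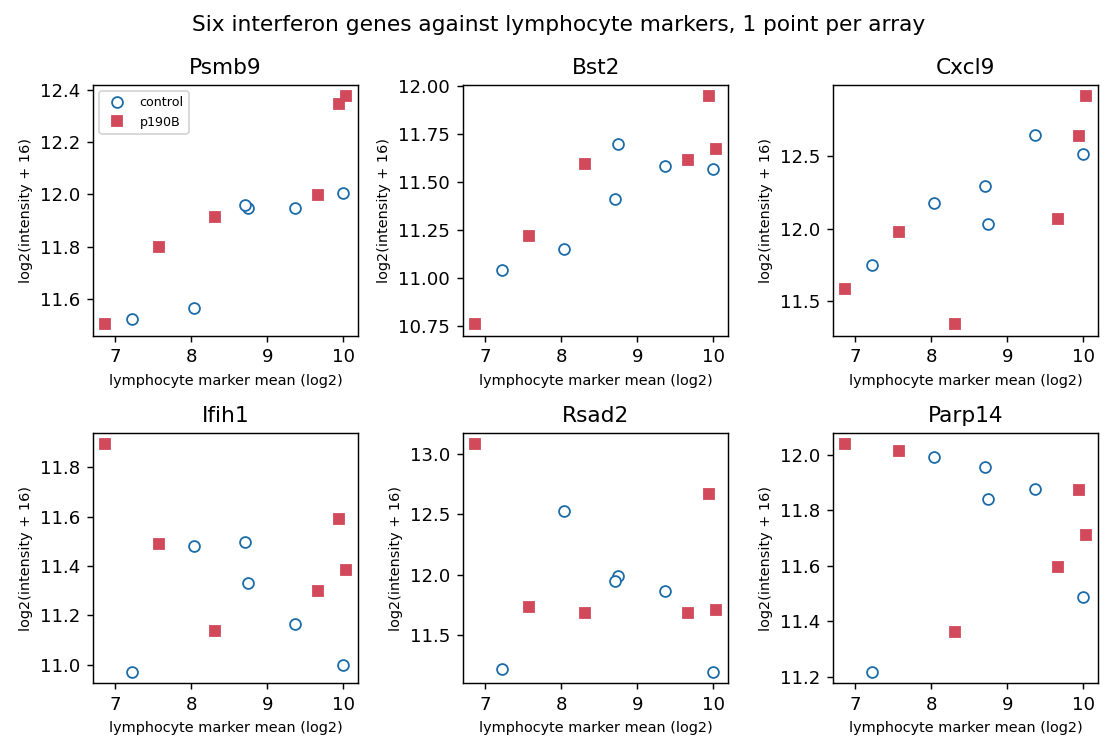
Log2 signal of 6 members against the mean log2 signal of T, NK and B lymphocyte markers on the 12 arrays, with genotypes in separate colours; the members were picked after their values were seen. Psmb9, Bst2 and Cxcl9 increase along the axis, while Ifih1, Rsad2 and Parp14 do not.

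A further 121 genes of the interferon pathway were listed, of which 109 were on the array and 102 above the limit for low signal. None passed the genotype comparison with limma (background 0.037%), 5 had an unadjusted p under 0.05 (background 9.32%), and 73 of 102 had a positive difference, against 59.7% of all tested genes. The interferon genes themselves were low. Of 10 listed ligands 7 were on the array, and only Ifnb1, which encodes interferon beta, was above the limit, at 111, 192 and 371 units in control and 99.5, 229 and 789 in p190B, a difference of 0.34 (SE 0.42). Ifng and the 5 interferon alpha genes read were below it in mean log2 signal, although single arrays were higher. Ifna2 read 6.0, 35.1 and 430.2 units in control and 5.0, 37.6 and 325 in p190B. In each genotype 1 array held the highest value for Ifna2, Ifna4 and Ifna5, control replicate 6 and p190B replicate 4. Ifna4 read 126 and 169.7 units on these arrays and Ifna5 187 and 260.1. The same arrays were the highest of their genotype for Mx1 (413 and 500.0 units) and Ifit2 (1401 and 1271 units). No other member was highest on both. Ifng was also highest on these arrays. Ifnb1 and Ifna11 were instead highest on control replicate 2 and p190B replicate 1, and Ifna1 on control replicate 6 and p190B replicate 1. The share of all genes highest on both arrays was not counted. These matches were noticed after the values were seen and were not tested. The interferon alpha genes are close in sequence, so which of them a probe set reads is uncertain.

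Read by the brightest probe set of each gene, the pathway gene with the smallest p was Ptpn6, which encodes the phosphatase SHP-1 that dampens cytokine receptor signalling. It read 602, 708 and 941 units in control and 654, 1222 and 1463 in p190B. All p190B arrays except replicate 1 were above every control array, and the difference was 0.63 (SE 0.17) with a limma adjusted p of 0.241. Without p190B replicate 1 it was 0.79 with a limma adjusted p of 0.037, and a second Ptpn6 probe set gave 0.30. Uba7, the enzyme that activates ISG15 for conjugation, read 1094, 1379 and 1464 in control and 1397, 1626 and 1785 in p190B, with 5 of 6 p190B arrays above every control array and a difference of 0.27 (SE 0.088).

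The next in order of p were Tyk2, a kinase of the type I receptor, at 0.21 (SE 0.079), Rnf213, a large ubiquitin ligase, at 0.30 (SE 0.13), and Irf3, the factor that starts interferon transcription, at 0.13 (SE 0.061). H2-K1, a classical MHC class I heavy chain, gave 0.15 (SE 0.071), Samhd1, which destroys deoxynucleotides, gave 0.25 (SE 0.12), and Trim30a gave 0.29 (SE 0.14). Limma adjusted p of these 8 genes ran from 0.241 to 0.566. A second Trim30a probe set, nearly as bright, gave only 0.035 (SE 0.17). The remaining probe sets of H2-K1 gave differences of 0.36, 0.10 and −0.036. The first of these had a limma adjusted p of 0.156, below that of Ptpn6 and also short of the threshold, and since the MHC class I heavy chain genes are close in sequence, which of them a probe set reads is uncertain.

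The spread of the pathway genes differed by list. The median standard deviation was 0.52 log2 units for 6 MHC class II genes, 0.25 for 55 other interferon-induced genes, 0.20 for 15 genes of interferon induction, 0.13 for 13 receptor and signalling genes, and 0.12 for both 12 MHC class I and peptide loading genes and 14 proteasome subunits that interferon does not replace. The median correlation with the mean of the members was 0.60 for MHC class II, 0.57 for the other induced genes, 0.51 for MHC class I, 0.47 for receptors, 0.43 for induction and 0.093 for the constitutive proteasome. On the lymphocyte markers 19 of the 102 pathway genes passed, all with positive slopes (background 3.11%): 5 of 6 MHC class II genes, 3 of 13 receptor and signalling genes, 2 of 15 genes of interferon induction, 2 of 12 MHC class I and peptide loading genes and 7 of 55 other induced genes. With single arrays left out these counts stayed at 5 for MHC class II and ran from 2 to 4 for receptors and signalling, from 1 to 2 for induction, from 0 to 3 for MHC class I and from 5 to 8 for the other induced genes. The count for MHC class I was 0 without p190B replicate 1 and also without p190B replicate 4. The share of all probe sets that passed is not given for the fits with an array left out. Calls that remained in 6 or fewer of these 12 fits were those of Zbp1 (6), Lgals3bp (5), H2-K1 (3) and Casp1 (3). Psmb10, the remaining induced proteasome subunit, passed with 0.14 (SE 0.031) at a limma adjusted p of 0.018, as Psmb8 and Psmb9 did. Of the 14 constitutive subunits 0 passed, and the difference between the 2 sets of subunits was itself not tested.

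MHC class II molecules, with which antigen-presenting cells show peptides to helper T cells, had the largest share of genes that passed. H2-Ab1 had a slope of 0.49 (SE 0.042) at a limma adjusted p of 1.68e-06, and Cd74, the invariant chain, one of 0.35 (SE 0.038) at 2.45e-05. Ccl5, a chemokine that T and NK cells make, had 1.12 (SE 0.10), and Epsti1 had 0.97 (SE 0.059). Irf8, a factor of myeloid and B cells, had 0.38 (SE 0.040). The receptor chain Ifngr1 passed with 0.23 (SE 0.028) and Ifnar1 with 0.14 (SE 0.030). The calls of Psmb10 and Ifnar1 were each lost in 2 of 12 fits with an array left out: without p190B replicate 1 or 4 for Psmb10, and without control replicate 4 or p190B replicate 3 for Ifnar1. The class II, Ccl5, Epsti1, Irf8 and Ifngr1 calls remained in all 12.

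Among 12737 other tested genes, those whose array pattern was most like the mean of the members were Ifi47, an immunity-related GTPase, and Herc6, the mouse ligase for ISG15, with correlations of 0.92 and 0.91 over the 12 arrays. Without control replicate 5 and p190B replicate 2 these were 0.77 and 0.74, and for the 15 genes most like the mean the values then ran from 0.36 (Rcbtb1) to 0.77. The next were Anapc15 (0.87), Iigp1 (0.86), Slc35b3 (0.85), S100a8, a calcium-binding protein of neutrophils, Nampt, an enzyme of NAD salvage, Gramd3 and Ifi27 (each 0.84), H2-T18, Lce3b, Rcbtb1, Mkrn1, Fam107b and Rab30 (each 0.83). Of these 15 genes 4 were on the pathway list, Ifi47, Herc6, Iigp1 and Ifi27. That list held 102 of the 12737 genes compared.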

How the data were processed

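Total RNA was turned into biotin-labelled cRNA for Affymetrix arrays of 1 colour, as the labels' protocols state. The authors deposited 1 linear intensity per probe set and array, made with MAS5 per the submitters' processing notes. In the values the 2% trimmed mean was 1000.01 on all 12 arrays, so each had been scaled to 1 target. MAS5 values near the bottom of the range are noisy. An array has no read depth, and 6 arrays per group limit the precision.

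Sample titles gave the groups, and the platform annotation gave gene symbols: of 45037 probe sets that are not array controls, 34945 had 1 symbol, 932 several and 9160 none here. Intensities were analysed as log2(value + 16), which understates changes of dim genes. Probe sets at or above the 40th percentile of mean log2 value, about 101 intensity units, were tested (27022). Genotypes were compared in R 4.3.3 by a two-sided moderated test of limma 3.58.1 (eBayes, trend on), and p-values were adjusted over all of these by Benjamini-Hochberg, with a threshold of 0.05. This fit was tested on simulated data. Correlations and standard deviations were computed after centring each genotype, in Python 3.11.15.

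The members and lists were chosen with earlier results of these data known. Intensities in each group were given in full range for the 6 members with the smallest p, the 8 with the largest spread and up to 2 per role (the brightest and the most variable). Of other pathway genes the 8 with the smallest p were named, and 15 genes by likeness to the members' mean. Pathway genes named for their slopes were picked after their values were seen. Other settings tried were other pseudocounts, filters, scalings, eBayes variants, all probe sets averaged, covariates, the replicate number as a block and each array left out; the marker slopes were added after seeing the data.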

Additional observations from a re-analysis of the deposited data

Results flagged for a closer look

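Each group of 6 arrays was checked for an array far from the others in each of the 32 members, in their mean and in the means of 8 marker lists, 82 groups in all, and 3 had one, where chance gives about 1 in 20. Cmpk2 read 10.0015 on the log2 scale on control replicate 6, with the other controls between 9.36 and 9.53. Ifi35 read 13.40 on p190B replicate 1, with the other p190B arrays between 13.59 and 13.65. Cxcl10 read 12.06 on control replicate 5, with the other controls between 12.53 and 12.79. Control replicate 5 is also the array that was lowest for 18 of 32 members, but the mean of the members was not flagged on any array. The members vary together, so these 18 are not separate observations.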

How the results depend on the processing

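Under no setting did a member pass the genotype comparison, and their median difference stayed positive. Apart from the fits with single arrays left out, it ran from 0.075 (Gapdh 3′ to 5′ ratio added as covariate) to 0.16 (without p190B replicates 1 and 3). With single arrays left out it was lowest without control replicate 5, at 0.079, and highest, at 0.18, without control replicate 6. Positive differences numbered 20 of 32 without control replicate 5 and 29 of 32 without p190B replicate 6. The share of all genes with a positive difference is not given for these fits. The 10 probe sets called over the whole table became 0 with the Gapdh covariate and 0 with the replicate number as a block, 3 with eBayes without trend, 4 with equal array medians, 5 with no filter, 5 without p190B replicates 1 and 3, 17 with a filter at the 60th percentile, 26 with the lymphocyte covariate, 28 with quantile normalisation, and 4 to 9 with single arrays left out. The cause was not tested. That count was not run for the mean of all probe sets. Equal medians moved the median of all probe sets to −0.013. Pathway genes called were 0, and 0 to 1 with single arrays left out. With an array left out, 3 to 8 members passed on the lymphocyte markers (3 without p190B replicate 1 or 4, 8 without control replicate 4). Under other settings 4 or 5 passed, Mx1 being lost with quantile normalisation and with a pseudocount of 64. On the macrophage markers 0 to 3 members passed with an array left out. The share of all probe sets that passed is not given for these fits, so these counts have no background beside them.

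Some member differences changed sign, none of them called. With the Gapdh covariate Ifih1 was −0.072, Eif2ak2 0.041, Rsad2 −0.37, Rtp4 −0.057, Parp9 −0.0102 and Parp14 −0.27. With the macrophage covariate Mx1 was −0.17, Bst2 −0.056 and Xaf1 −0.012. With all probe sets averaged Gbp2 was 0.025, Rtp4 −0.0038 and Psmb8 −0.013, and without p190B replicates 1 and 3 Eif2ak2 was 0.015, Parp14 −0.093 and Cxcl9 0.0024. With single arrays left out, Bst2 ran from −0.039 to 0.20, Cxcl10 from −0.25 to 0.010, Eif2ak2 from −0.096 to 0.000202, Gbp2 from −0.087 to 0.035, Irf9 from −0.078 to 0.031, Mx1 from −0.19 to 0.25, Mx2 from −0.20 to 0.0398, Parp14 from −0.065 to 0.12, Rtp4 from −0.026 to 0.17 and Xaf1 from −0.043 to 0.13.

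The labels give both groups replicate numbers 1 to 6. Same-numbered arrays had correlations of 0.012, −0.079, −0.29, 0.41, −0.24 and −0.15 in their deviations from the group means, and an array matched its own number best for replicate 4 alone, so the numbers were not taken to pair the arrays. With the replicate number as a block 0 members were called and their median difference was 0.12. Signals near the limit of about 101 units, such as Mx1 and the interferon genes, are the least precise.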
